A study of Homo sapiens with 4 samples.

Results

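Receptor tyrosine kinases are cell surface proteins that bind a ligand outside the cell and phosphorylate tyrosines inside it. EGFR, ERBB2, AXL, EPHB2, EPHB3 and FLT1 belong to this family. NRP1 (neuropilin 1) has no kinase of its own and serves as a co-receptor for VEGF and class 3 semaphorins. The 7 genes were selected on being named in the authors' deposited table of 1 CD26+ against 1 CD26- array, which was chosen by a fold of at least 2 in that pair, and every probe set with one of them as its only symbol was taken. This gave 12 probe sets of the 11430 in that table and of the 54675 on the array. EGFR has 4 of them, FLT1 and NRP1 have 2 each, and ERBB2, AXL, EPHB2 and EPHB3 have 1 each.

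Total RNA of HT29 cells, a human colorectal adenocarcinoma line grown in DMEM with FBS, was hybridized to Affymetrix human genome U133 Plus 2.0 arrays. The cells were sorted by FACS into the brightest cells for CD26 (CD26+, 2 arrays) and the dimmest (CD26-, 2 arrays), with no other treatment. CD26 is the surface peptidase encoded by DPP4. The labels name biological replicates but not what sets the replicates of a group apart, so the spread between them may be technical. In such bulk RNA, fewer cells of a type and less RNA per cell cannot be told apart.

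EGFR binds EGF, TGF-α, amphiregulin and epiregulin, and ERBB2 pairs with the other ERBB receptors without a ligand of its own. AXL binds GAS6. EPHB2 and EPHB3 bind ephrin-B ligands on neighboring cells, and in the intestine both are known as WNT targets of the crypt base that help to place cells along the crypt. FLT1 (VEGFR1) binds VEGF-A, VEGF-B and PlGF and is best known from endothelial cells.

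The promoters of the members whose groups did not overlap on at least 1 probe set are printed here, to show what these 5 genes carry before their starts beside how they moved. NRP1 is named only. Of the 7 genes, 6 have an entry in the RefSeq promoter table (GRCh38.p14), and the 250 bases before the first listed start are shown for 5. Capitals mark matches on either strand to 5 motifs that are widely used in promoter searches. The GC box, which SP1 family factors bind, was searched as GGGCGG. The AP-1 site was searched as TGANTCA, where N is any base. For the cAMP response element the letters were TGACGTCA in full. The TATA box was searched as TATAAA in its short form. The site of TCF/LEF factors, the nuclear end of WNT signaling, was searched as CTTTGAT on both strands.
AXL, chr19:41218973-41219222, plus strand: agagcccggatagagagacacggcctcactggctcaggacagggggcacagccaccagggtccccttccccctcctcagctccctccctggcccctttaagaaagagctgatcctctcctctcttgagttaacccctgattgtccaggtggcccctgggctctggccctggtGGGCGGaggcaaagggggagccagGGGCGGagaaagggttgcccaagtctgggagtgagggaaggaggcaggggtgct
EGFR, chr7:55018767-55019016, plus strand: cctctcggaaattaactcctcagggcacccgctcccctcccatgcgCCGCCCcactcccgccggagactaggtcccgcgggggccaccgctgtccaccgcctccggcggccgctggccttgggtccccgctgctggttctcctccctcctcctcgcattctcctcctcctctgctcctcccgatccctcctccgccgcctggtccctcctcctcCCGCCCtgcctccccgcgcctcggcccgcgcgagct
EPHB2, chr1:22710588-22710837, plus strand: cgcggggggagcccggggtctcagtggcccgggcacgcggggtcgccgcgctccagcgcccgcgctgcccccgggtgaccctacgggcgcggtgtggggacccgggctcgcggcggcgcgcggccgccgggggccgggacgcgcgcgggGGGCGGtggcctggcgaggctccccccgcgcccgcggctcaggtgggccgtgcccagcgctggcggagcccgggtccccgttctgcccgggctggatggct
EPHB3, chr3:184561535-184561784, plus strand: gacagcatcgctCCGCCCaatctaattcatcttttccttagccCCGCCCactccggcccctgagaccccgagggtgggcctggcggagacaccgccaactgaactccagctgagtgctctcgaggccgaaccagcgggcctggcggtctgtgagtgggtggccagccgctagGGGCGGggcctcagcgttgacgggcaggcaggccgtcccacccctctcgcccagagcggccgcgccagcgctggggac
FLT1, chr13:28495129-28495378, minus strand: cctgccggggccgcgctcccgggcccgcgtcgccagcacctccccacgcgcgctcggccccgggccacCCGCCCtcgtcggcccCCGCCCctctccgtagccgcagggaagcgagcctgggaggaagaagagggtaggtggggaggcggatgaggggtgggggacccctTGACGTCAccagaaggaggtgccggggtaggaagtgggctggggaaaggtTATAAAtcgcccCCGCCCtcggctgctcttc
The GC box occurred 2 times before AXL, 2 times before EGFR, 1 time before EPHB2, 3 times before EPHB3 and 3 times before FLT1, and it is present in 42.3% of 27305 promoters of the same length. FLT1 alone among these 5 windows held a cAMP response element (1.77% of all promoters) and a TATA box (11.1%). The AP-1 letters (6.6%) and the TCF/LEF letters (2.28%) matched in 0 of the 5 windows. No match overlapped another. AXL, EGFR and EPHB2 have 2 listed starts each, and the windows before their second starts are not shown. Before the second start of EGFR the AP-1 letters and the TATA box matched 2 times each. The GC content was 64.4% for AXL, 73.6% for EGFR, 84.8% for EPHB2, 70.0% for EPHB3 and 73.2% for FLT1, against a median of 58.0% over all promoters. Such matches describe the letters only.

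The arrays were first checked against their labels. DPP4 (203717_at) had signals of 6649 and 2513 on CD26+ replicates 1 and 2, against 1952 and 6465 on the arrays labelled CD26- replicates 1 and 2. With 203716_s_at it had 516 and 549, against 203 and 867. The array labelled CD26- replicate 2 thus went against its label for the gene used in the sort. With 203717_at CD26+ replicate 2 lay only a little above CD26- replicate 1, while its median signal over all probe sets was the highest. Its label is thus not clearly borne out by DPP4 either. CD26+ replicate 2 stood apart, with correlations of log2 signals across probe sets of 0.289 to 0.321 with the other arrays, which correlated at 0.910 to 0.928 with each other. Its median signal was 270.3, against 76.1 to 96.7 on the others, and the median of its hybridization controls 79655, against 4689 to 6591. The trimmed mean signal was 500 on every array. The deposited signals of CD26+ replicate 2 thus share the mean level of the others but are distributed differently. Of 14 colon epithelial markers 7 were named, and their summed signal was 57254 and 2881 on CD26+ replicates 1 and 2, against 62654 and 132738 on the CD26- arrays. LGALS4, KRT19 (a probe set that the table aligns to chromosome 6), CDH1, KRT20 and VIL1 had their lowest signal on CD26+ replicate 2, with CDH1 at 7312 and 27.7 on CD26+ replicates 1 and 2, against 16099 and 24462 on the CD26- arrays. The other 2, CDX1 and CDH17, did not, with CDH17 at 106 and 814, against 235 and 3622. The sum is carried by the brightest genes. The fitted changes of the members are therefore also given without that array.

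The selection fixes part of what follows. Every listed probe set differs by 2-fold or more between replicate 1 of CD26+ and replicate 1 of CD26- cells, the pair whose log2 ratio equals the deposited one to within 1.21e-05, although the table's header marks its CD26+ array with a 2. The smallest gap among the members in that pair was the 2.18-fold of EPHB3 and the largest was that of NRP1 (212298_at), whose CD26+ signal was too dim for an exact fold. Of the 12 probe sets, 9 were listed as lower and 3 as higher in CD26+ cells, and this split is a description. Another 10244 probe sets also reached 2-fold in that pair without being listed, and probe sets outside the table have no gene name here and are not analysed. The arrays labelled CD26+ replicate 2 and CD26- replicate 2 were not used for the table. The 7 genes were however picked from its named genes with earlier results of all 4 arrays known, so these arrays are not free of the selection. The fit without CD26+ replicate 2 keeps only CD26+ replicate 1, an array of the pair that chose the members. It thus leans more on that pair than the fit of all 4 arrays, and a listed direction kept there is partly fixed.

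**Figure D1:**
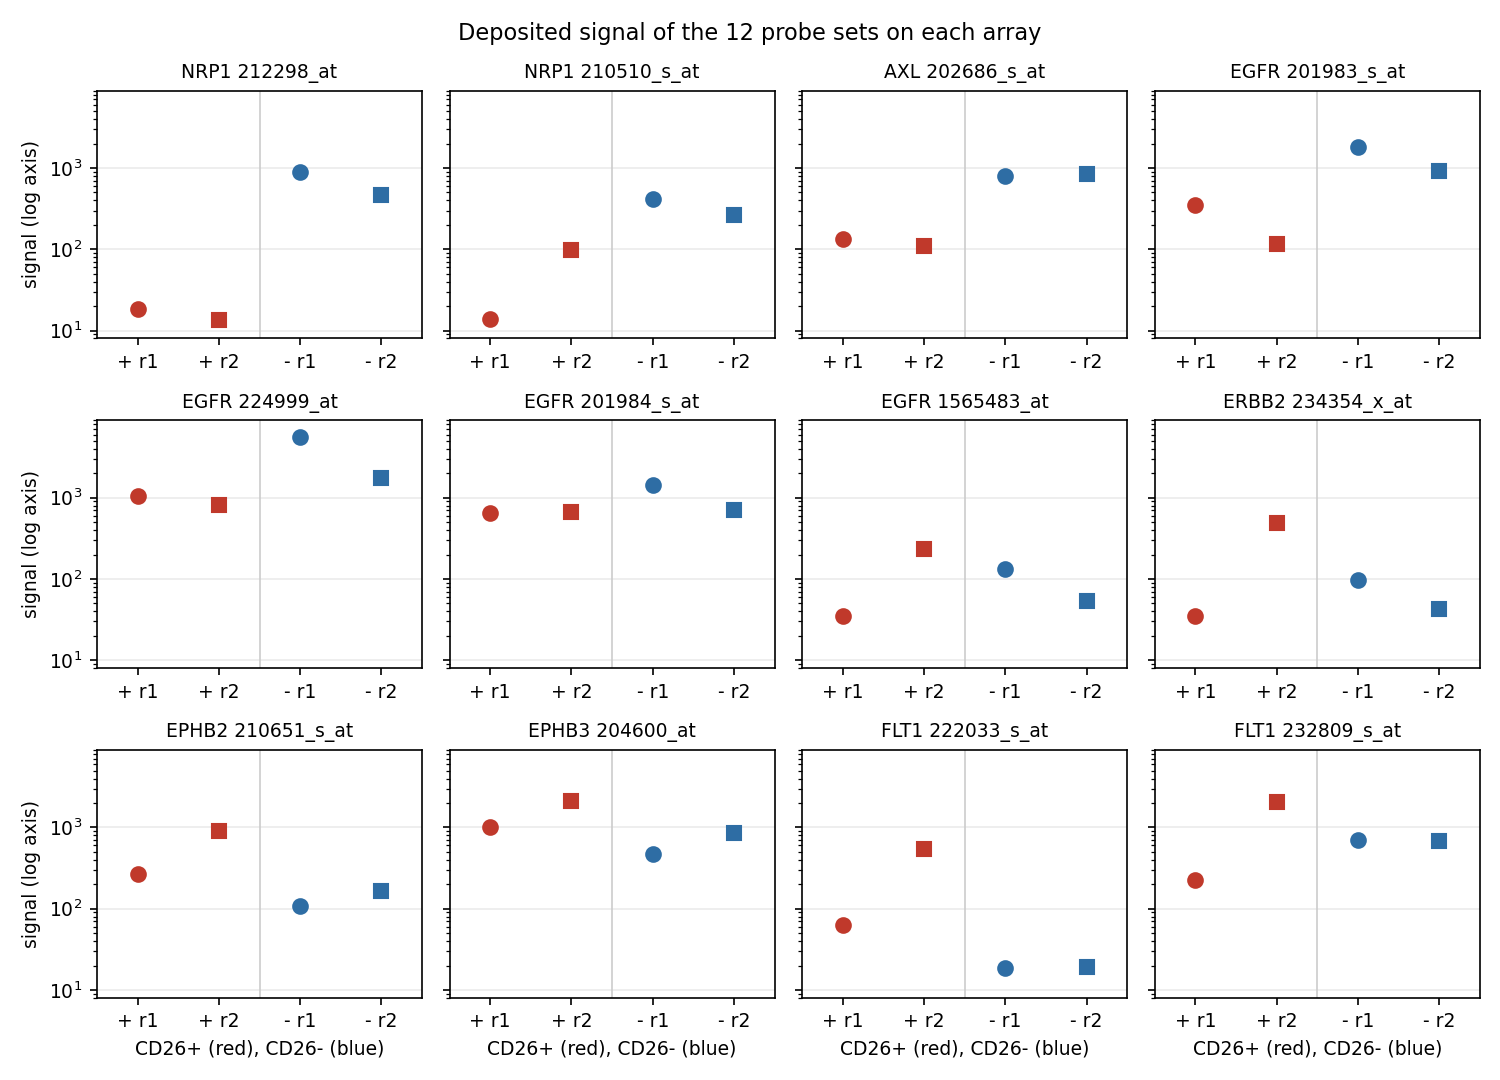
Deposited signal (log axis) of each of the 12 probe sets on the 4 arrays, CD26+ in red and CD26- in blue, with circles for replicate 1 and squares for replicate 2. NRP1 and AXL lay lower on both CD26+ arrays, EPHB2 and EPHB3 lay higher, and ERBB2 and the FLT1 probe set 232809_s_at overlapped.

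NRP1 was the member with the widest gap between CD26+ and CD26- cells. With 212298_at (chromosome 10, 33466425 to 33623596, minus strand) it had signals of 18.5 and 13.3 on CD26+ replicates 1 and 2, against 882 and 463 on the arrays labelled CD26- replicates 1 and 2. Both CD26+ values lay far below both CD26- values, at percentiles of 24.2 and 0.837 of their arrays against 83.4 and 74.3. The genome build of these coordinates is not given in the sources used here. With 210510_s_at (33486549 to 33623310) NRP1 gave signals of 13.9 and 97.2 in CD26+ cells, against 421 and 261 in CD26- cells. The groups were again apart. As deposited, CD26+ replicate 2 was 7.02 times CD26+ replicate 1 on that probe set, but the percentiles were close, at 25.8 and 20.3 of their arrays.

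Signals were then quantile normalized, 16 was added, log2 was taken, and limma was fitted over 54613 probe sets without the controls. In CD26+ cells the log2 fold change over CD26- cells was -4.36 with 212298_at (standard error 0.94, n = 2 arrays each) and -2.96 with 210510_s_at (standard error 0.83). Adding 16 makes these values understate the change of dim probe sets. Without CD26+ replicate 2 they were -3.67 and -3.11. In the pair that the table did not use, the normalized log2 value of CD26+ replicate 2 minus that of the array labelled CD26- replicate 2 was -4.61 with 212298_at and -2.46 with 210510_s_at. For CD26+ replicate 1 minus the same array the differences were -3.23 and -2.76. Folds of the deposited signals between the groups are not given for NRP1, since its CD26+ signals were dim.

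AXL, a receptor of the TAM group that is often studied in cell migration, had lower signals in CD26+ cells, and the CD26- arrays were level for it. With 202686_s_at (chromosome 19, 41724822 to 41767670, plus strand) it had signals of 134 and 109 in CD26+ cells, against 803 and 849 in CD26- cells. The deposited signals of a group lay close together, while the normalized log2 values were 7.82 and 5.98 in CD26+ cells, against 9.73 and 9.72 in CD26- cells. The groups did not overlap on either scale. CD26+ replicate 1 was 6.33-fold and CD26+ replicate 2 was 7.80-fold below the array labelled CD26- replicate 2. The log2 fold change was -2.83 (standard error 0.97), and -1.91 without CD26+ replicate 2.

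EGFR was lower on CD26+ replicate 1 than on CD26- replicate 1 with all 4 of its probe sets, in the pair that chose them, but its probe sets differed on the other arrays. With 201983_s_at (chromosome 7, 55086724 to 55275772, plus strand) the signals were 348 and 115 in CD26+ cells, against 1832 and 907 in CD26- cells. With 224999_at (55277237 to 55279360), which the table aligns downstream of the end of the other EGFR probe sets, they were 1064 and 819, against 5590 and 1765. Both probe sets kept the groups apart.

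The other pair of EGFR probe sets separated the arrays less. With 201984_s_at (55086793 to 55275025) the signals were 648 and 676 in CD26+ cells, against 1436 and 704 in CD26- cells, so that 3 of the 4 arrays lay close together. With 1565483_at (55233044 to 55236328) they were 35.2 and 233 in CD26+ cells, against 132.9 and 53.6 in CD26- cells, and the groups overlapped. That last probe set is dim, at percentiles of 33.8 to 59.2 of the arrays.

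In limma the log2 fold changes of EGFR were -2.85 (standard error 1.19) for 201983_s_at, -1.69 (standard error 0.94) for 224999_at, -0.72 (standard error 0.86) for 201984_s_at and -0.50 (standard error 0.91) for 1565483_at. Without CD26+ replicate 2 they were -1.47, -1.40, -0.48 and -0.85. The 2 CD26- arrays themselves differed for EGFR, with ratios of the array labelled CD26- replicate 2 to CD26- replicate 1 of 0.316 to 0.495 over the 4 probe sets. Against the array labelled CD26- replicate 2, CD26+ replicate 1 was 2.61-fold lower with 201983_s_at and 1.66-fold lower with 224999_at. With 201984_s_at it was 1.09-fold lower. The size of the EGFR gap thus differed with the CD26- array it was set against.

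EPHB2 and EPHB3 had higher signals in CD26+ cells, and for each the groups did not overlap. EPHB2 (210651_s_at, chromosome 1, 23037462 to 23240763, plus strand) had signals of 268 and 907 in CD26+ cells, against 108 and 165 in CD26- cells. EPHB3 (204600_at, chromosome 3, 184279996 to 184300196, plus strand) had signals of 1027 and 2131 in CD26+ cells, against 470.4 and 865 in CD26- cells. For both receptors CD26+ replicate 2 was the highest array and CD26- replicate 1 the lowest, and the 4 arrays came in the same order.

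The log2 fold changes were 1.48 (standard error 0.88) for EPHB2 and 1.41 (standard error 0.95) for EPHB3, and 0.86 and 0.61 without CD26+ replicate 2. CD26+ replicate 1 was 1.62 times the array labelled CD26- replicate 2 for EPHB2 and 1.19 times for EPHB3. CD26+ replicate 2 was 5.50 and 2.46 times that array. With arrays centred on their medians in place of quantile normalization, EPHB3 overlapped between the groups and EPHB2 did not. EPHB3 then had a log2 fold change of 0.50, and CD26+ replicate 2 minus the array labelled CD26- replicate 2 was -0.06, so its gap in that pair depended on the scaling. For EPHB2 that difference was 1.01.

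FLT1 gave different results with its 2 probe sets. With 222033_s_at (chromosome 13, 28874483 to 28874953, minus strand) it had signals of 62.4 and 549 in CD26+ cells, against 18.6 and 19.2 in CD26- cells. The CD26- arrays were level and dim, at percentiles of 25.3 and 22.0, and the groups did not overlap. With 232809_s_at the signals were 223 and 2036 in CD26+ cells, against 702 and 681 in CD26- cells, with CD26+ replicate 1 the lowest array and CD26+ replicate 2 the highest. The table aligns 232809_s_at to chromosome 13, 99155295 to 99158256 (band q32.2), 70.3 Mb from the other FLT1 probe set in band q12.2. The nearest named probe sets in the table there belong to STK24 and LOC100287024, so whether 232809_s_at measures FLT1 is unsure.

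The log2 fold change was 2.00 (standard error 0.94) for 222033_s_at, and 1.20 without CD26+ replicate 2. For 232809_s_at it was 0.44 (standard error 1.26), and -1.16 without CD26+ replicate 2.

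ERBB2 was represented by 234354_x_at only, a dim probe set that the table aligns over 175 bases (chromosome 17, 37873725 to 37873899, plus strand) with 61.1% of its sequence. It had signals of 35.3 and 485 in CD26+ cells, against 96.0 and 42.9 in CD26- cells. CD26+ replicate 2 was the highest array and CD26+ replicate 1 the lowest, so the groups overlapped. The log2 fold change was 0.40 (standard error 1.05), and -0.57 without CD26+ replicate 2. Without CD26- replicate 2 the value was -0.18, so the direction for ERBB2 depended on either of these arrays.

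**Figure D2:**
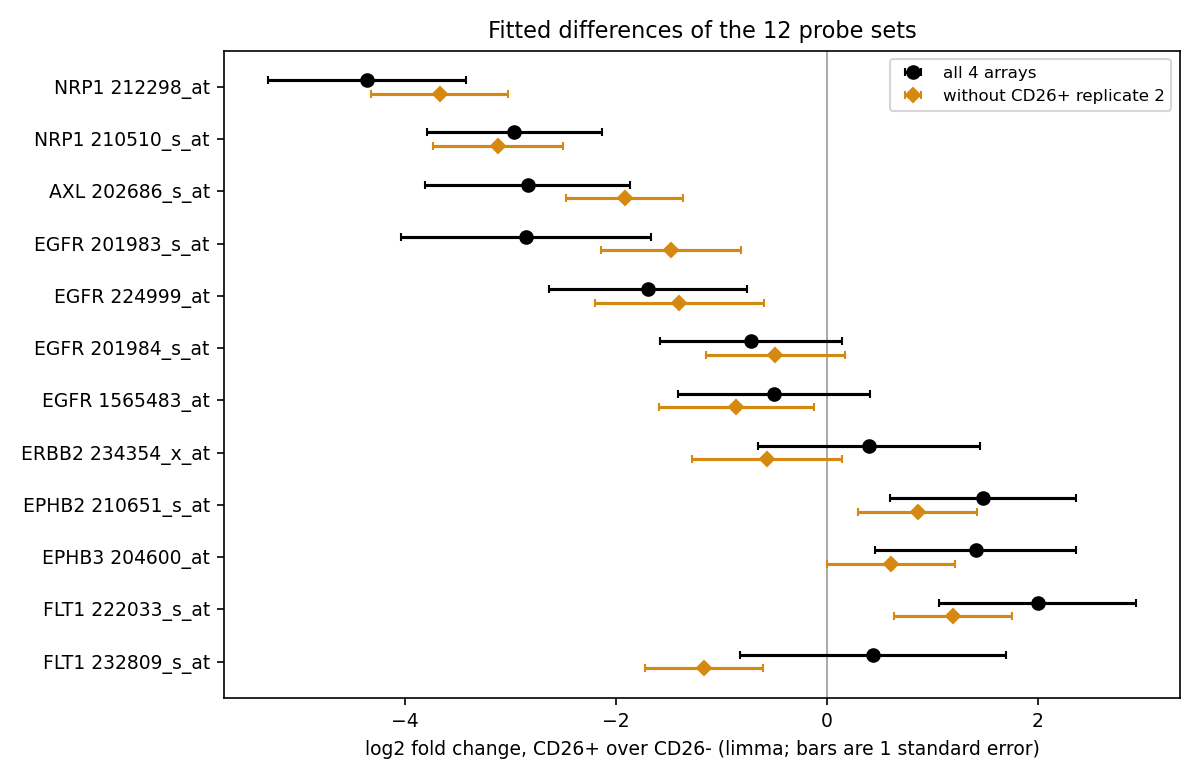
Log2 fold change (x axis, CD26+ over CD26-) of each of the 12 probe sets, with bars of 1 standard error from limma, for all 4 arrays (black) and without CD26+ replicate 2 (orange). NRP1, AXL and EGFR lie on the lower side in both fits, while ERBB2 and the FLT1 probe set 232809_s_at change sides. The orange fit leans more on the pair of arrays that chose the probe sets.

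Of the 12 probe sets 0 passed an adjusted p of 0.05 in limma, as did 0% of all 54613 probe sets, with a smallest adjusted p of 0.79. That fit holds the pair of arrays that chose the members, so it describes them and is no independent test. At an unadjusted p under 0.05 there were 3 members, AXL and both NRP1 probe sets, all lower in CD26+ cells, where 0.897% of all probe sets and 6.73% of those listed as lower reached it on that side (0.665% of all on the higher side). The methods' t-test called 0 members after adjustment and had 2 at its unadjusted threshold, both lower in CD26+ cells, beside 1.76% of all probe sets on that side. The lowest p open to an exact permutation test of 2 arrays against 2 is 0.33.

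On normalized values, on which all counts here rest, the groups did not overlap for 9 of the 12 probe sets. On the lower side these were 6 of the 9 listed as lower. Of all probe sets 16.2%, and of those listed as lower 51.3%, were separated in that direction. EGFR 201984_s_at is counted among the 6 by a narrow gap. Its normalized log2 value on CD26+ replicate 1 minus that on the array labelled CD26- replicate 2 was -0.011. On the higher side all 3 listed as higher were separated, where 20.4% of all probe sets and 43.1% of those listed as higher were. A gap of at least 2-fold, whichever CD26+ array was set against whichever CD26- array, was found for 4 of the probe sets on the lower side (both of NRP1, AXL and EGFR 201983_s_at), beside 2.53% of all probe sets and 17.4% of those listed as lower. On the higher side it was found for FLT1 222033_s_at, beside 2.13% of all probe sets and 8.71% of those listed as higher.

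The pair that the table did not use was then read alone, with 1 array a side and no test. CD26+ replicate 2 was at least 2-fold below the array labelled CD26- replicate 2 for 5 of the 9 probe sets listed as lower (both of NRP1, AXL, and EGFR 201983_s_at and 224999_at). The share was 32.1% of all probe sets and 48.3% of those listed as lower. The members' count is thus near this background. It was at least 2-fold above that array for 2 of the 9, ERBB2 and FLT1 232809_s_at, beside 25.5%, and for all 3 listed as higher, beside 38.8% of such probe sets and 36.3% of all. With arrays centred on their medians, EPHB3 and FLT1 232809_s_at no longer reached 2-fold above and EGFR 201984_s_at reached 2-fold below. CD26+ replicate 1 was at least 2-fold below the array labelled CD26- replicate 2 for 5 of the 9 (both of NRP1, AXL, EGFR 201983_s_at and FLT1 232809_s_at), beside 14.3% of all probe sets and 38.1% of those listed as lower. It was at least 2-fold above it for 1 of the 3, FLT1 222033_s_at, beside 13.1% of all and 33.8% of those listed as higher.

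**Figure D3:**
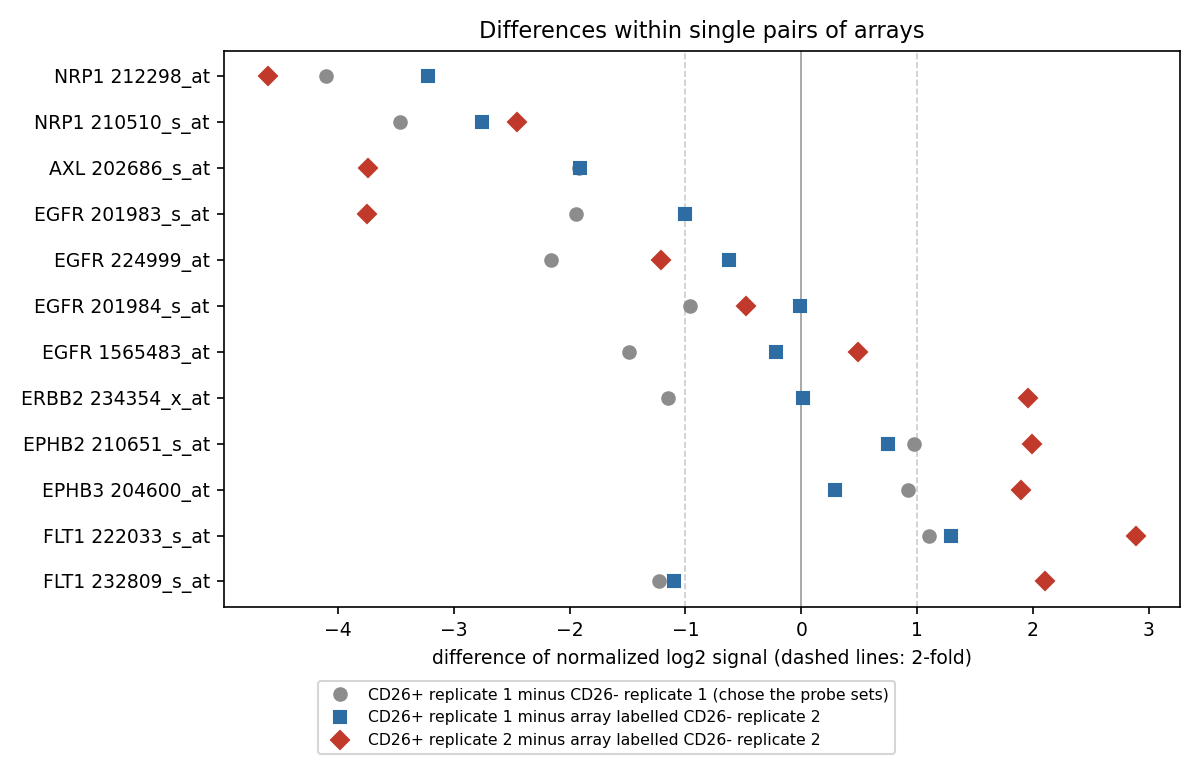
Difference of normalized log2 signal (x axis) within 3 pairs of arrays for each probe set, with dashed lines at 2-fold. Grey circles mark the pair that chose the probe sets, blue squares CD26+ replicate 1 and red diamonds CD26+ replicate 2, each minus the array labelled CD26- replicate 2. NRP1 and AXL lie past 2-fold on the lower side in all 3 pairs.

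Of 58 human receptor tyrosine kinases, 28 are named in the table, and 22 of these are not among the 7 genes. Genes with several probe sets are represented by the brightest on average. None of the 22 was called by limma at an adjusted p under 0.05, 0 of them had an unadjusted p under 0.05, and their median log2 fold change was -0.19, beside 0.04 for all 6603 named genes. The groups did not overlap on the higher side for 5 of them and on the lower side for 2, where 24.3% and 19.5% of all named genes were so separated, again on normalized values.

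ERBB3, a partner of ERBB2 with weak catalytic activity, had signals of 3507 and 477 in CD26+ cells, against 1348 and 6551 in CD26- cells, and the groups overlapped. MERTK, a relative of AXL, had signals of 56.1 and 646, against 27.1 and 40.5, which is opposite in direction to AXL. MERTK too was dim, above the array median on 1 array only. FLT4 (VEGFR3) had signals of 38.1 and 1222, against 87.5 and 66.0, and overlapped.

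Among the other Eph receptors, EPHA3 and EPHA4 did not overlap and were higher in CD26+ cells, with EPHA4 at signals of 80.0 and 572 against 22.5 and 15.9. EPHA3 was dim, above the array median on 0 arrays, and EPHA4 was above it on 2. EPHA2, EPHA6, EPHA10, EPHB4 and EPHB6 overlapped, EPHA6 only after normalization (signals of 56.3 and 70.6 in CD26+ cells, against 12.7 and 12.3 in CD26- cells). EPHB4, another EphB receptor, had signals of 4924 and 443, against 2018 and 1168, so that CD26+ replicate 1 was the highest array and CD26+ replicate 2 the lowest. Of the remaining receptors IGF1R and FGFR1 were separated on the higher side and INSR and LMTK2 on the lower.

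**Figure D4:**
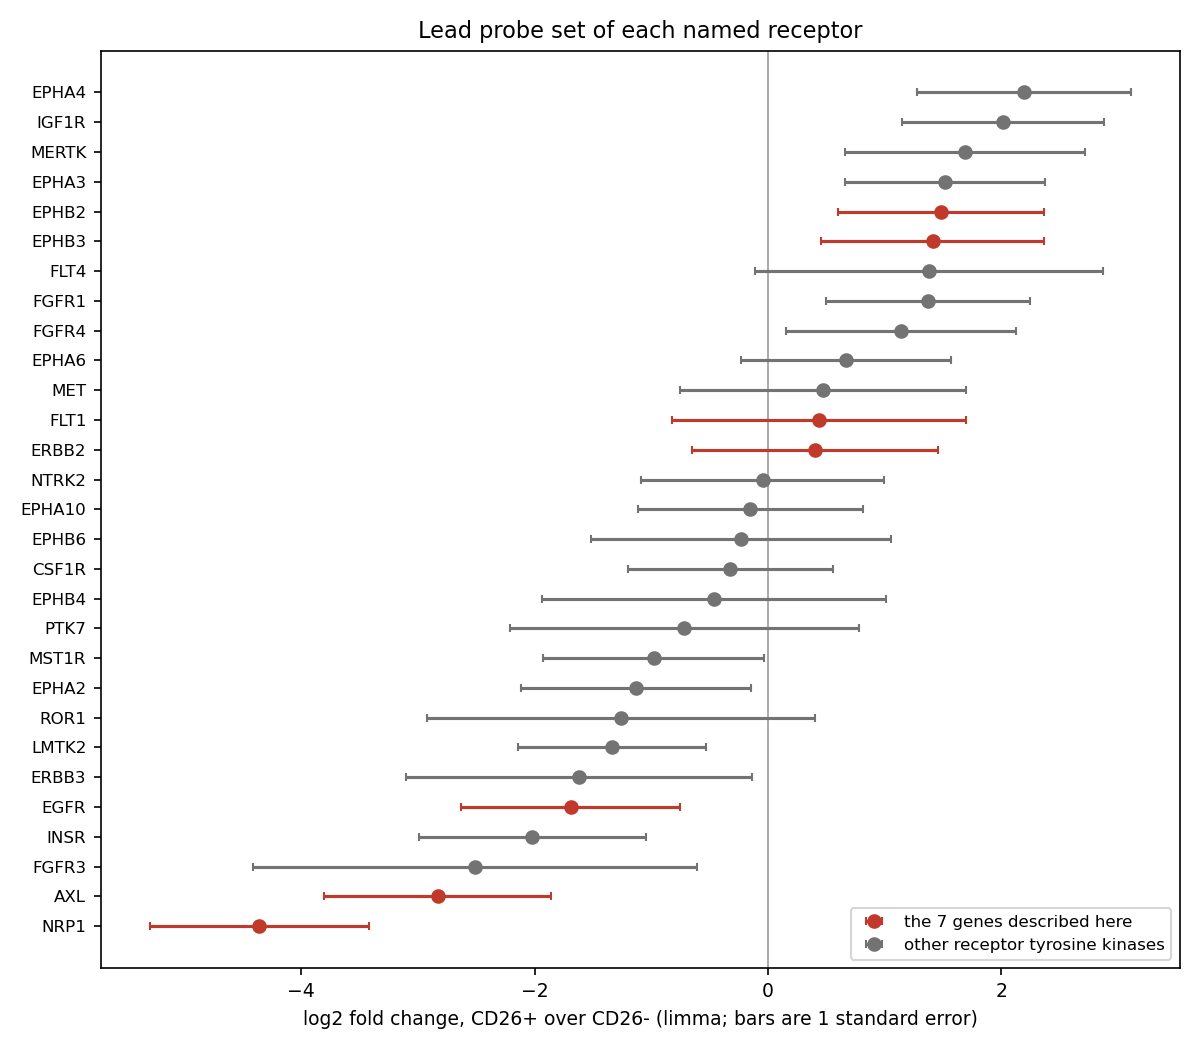
Log2 fold change (x axis, CD26+ over CD26-, bars of 1 standard error from limma) for the lead probe set of NRP1 and of each named receptor tyrosine kinase, with the 7 genes described here in red. NRP1 and AXL lie at the lower end, and EPHB2 and EPHB3 lie among the higher receptors beside EPHA3.

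The ligands of these receptors were sparsely named. Of 11 ERBB ligands 2 were named, of 2 AXL ligands 1, of 8 ephrins 3 and of 6 VEGF ligands 0, and limma called 0 of them, with 0 at an unadjusted p under 0.05. EREG (epiregulin), a ligand of EGFR, had signals of 2659 and 28.7 in CD26+ cells, against 7964 and 819 in CD26- cells, and NRG1, a ligand of ERBB3, had 31.1 and 265 against 13.3 and 29.2. GAS6, the ligand of AXL, gave 73.8 and 6200, against 366 and 627, with the CD26+ arrays at both extremes. EFNB2, an ephrin that binds EPHB receptors, gave 3127 and 3971, against 11746 and 3292. EFNA5, an ephrin-A, gave 1053 and 230.4, against 2341 and 2493. Of these ligands NRG1 and EFNA5 kept the groups apart, and NRG1 was below the array median on all 4 arrays.

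On the semaphorin side, 8 genes beside NRP1 were named of 17 listed, with 0 at an unadjusted p under 0.05, and the groups were apart for 3 on the higher side and 3 on the lower, beside 24.3% and 19.5% of all named genes. NRP2, the other neuropilin, had signals of 87.3 and 169 in CD26+ cells, against 18.8 and 9.004 in CD26- cells, which is opposite in direction to NRP1. NRP2 was however dim, above the array median on 1 array only. Its log2 fold change was 1.47 (standard error 0.85). SEMA3C, a secreted ligand of neuropilins, had signals of 1056 and 21.7, against 3062 and 4494, and PLXNA1, a signaling partner of neuropilins, 3232 and 130, against 8209 and 4574. SEMA3A overlapped, with 127 and 477 against 362 and 128. PLXNC1 was lower and SEMA3F higher on both CD26+ arrays.

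Inside the cell, 9 of 38 adaptors and feedback regulators were named and 0 were called, with 0 at an unadjusted p under 0.05. Of the 6 with the highest mean, GRB7, an adaptor of ERBB2, was separated on the higher side with signals of 470.1 and 1774, against 173 and 127. DUSP4, a phosphatase of MAP kinases, was separated on the lower side with 379 and 65.0, against 1211 and 510. GRB10, CBLB, NCK1 and CBLC overlapped.

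FLT1 and NRP1 are also known from endothelial cells and AXL from stromal cells, so markers of these cells were read beside them. Of 11 endothelial markers 2 were named (CLDN5 and EMCN), with summed signals of 58.0 and 812 in CD26+ cells, against 52.5 and 49.4 in CD26- cells. Of 10 fibroblast markers 3 were named, with 468 and 5113, against 54.2 and 995. Of 11 immune markers 3 were named, with 2495 and 305, against 6806 and 4508. That sum is mostly LYZ, while ITGAM went the other way with 116 and 148, against 23.0 and 19.8. The highest endothelial and fibroblast sums fell on CD26+ replicate 2, where FLT1 was also highest with both probe sets. These are sums of deposited signals, and the median of all probe sets was also highest on that array (270.3, against 76.1 to 96.7). CLDN5 and EMCN had signals of 308 and 504 there, and COL1A1, DCN and FAP had 878, 2509 and 1725. On the same array AXL and NRP1 212298_at had their lowest signal of the 4, and NRP1 210510_s_at did not. Neither the part of these cell types nor that of the array's level in the result was tested.

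The genes with the most similar pattern over the 4 arrays were found among 6596 other named genes, by the root mean square difference of centered log2 values. For NRP1 they were LOC100510649 (0.29) and LOC145474 (0.42). For AXL they were FAM126B (0.11) and RICTOR (0.12), and for EGFR (224999_at) PHLDB2 (0.15) and TNC (0.15). For EPHB3 they were ZNF524 (0.0053) and CPT2 (0.017), and for EPHB2 MLLT6 (0.026) and LOC401093 (0.039). For ERBB2 they were CDC20B (0.10) and GAS7 (0.11), and for FLT1 (232809_s_at) TSPAN3 (0.076) and HRH3 (0.079). The comparison rests on 4 arrays and describes likeness of pattern only.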

How the data were processed

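RNA of 2 CD26+ and 2 CD26- samples of HT29 cells was measured on 1 array each. The deposited values are linear intensities (signals) per probe set. The paper names Genespring GX and Genomatix Genome Analyzer for analysing the array data. Of summarization, scaling and genome build, the sources used here give none, although the trimmed mean signal was 500 on every array. The authors' deposited table of 1 array pair also holds a log2 fold change per probe set, with symbols and coordinates. That fold change gave the arrays that the table compares, the listed directions and the members' smallest and largest gaps in that pair. Of the table's 11430 probe sets, 8414 have exactly 1 symbol. The members and lists were chosen with earlier results of these data known, and all 7 members matched a GRCh38.p14 gene by Entrez identifier.

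Signals were quantile normalized over all probe sets and used as log2(signal + 16), and 62 control probe sets were then set aside. limma 3.58.1 in R 4.3.3 was fitted to 54613 probe sets (CD26+ minus CD26-, no replicate term, two-sided, Benjamini-Hochberg, threshold 0.05). The fit was also run on simulated data with the same spread on every array, which differs from these arrays, and no result here rests on it. Genes with several probe sets are represented by the brightest on average. Each array was left out in turn. Further alternatives were signals as deposited, median centering, bright probe sets alone, 1 or 64 as pseudocount, eBayes with trend and robustness, the replicate number as a block, renormalization of 3 arrays, averaging of the probe sets of each gene and the methods' t-test. The named genes are the members, the listed receptors, ligands and semaphorin genes, the 6 adaptors with the highest mean and the 2 genes nearest each member in pattern. The precision is limited by the 2 arrays a group.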

Additional observations from a re-analysis of the deposited data

How the results depend on the processing

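Leaving out each array in turn, limma called 0 to 23137 probe sets and 0 to 8 members. The highest values came without CD26+ replicate 1, which sets CD26+ replicate 2 alone against both CD26- arrays and assumes that it varies like them, and without CD26+ replicate 2 both counts were 0. The log2 fold changes ranged from -5.05 to -3.67 for NRP1 212298_at, from -3.31 to -2.61 for NRP1 210510_s_at, from -3.75 to -1.91 for AXL, from 0.86 to 2.10 for EPHB2, from 0.61 to 2.21 for EPHB3 and from 1.20 to 2.80 for FLT1 222033_s_at. For EGFR they ranged from -4.22 to -1.47 with 201983_s_at, from -2.46 to -0.92 with 224999_at and from -1.19 to -0.24 with 201984_s_at. The direction turned for EGFR 1565483_at (-1.14 to 0.13), ERBB2 (-0.57 to 1.38) and FLT1 232809_s_at (-1.16 to 2.04). With the other 3 arrays renormalized without CD26+ replicate 2, ERBB2 was at -0.58 and FLT1 232809_s_at at -1.42.

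With the signals as deposited, the median log2 fold change of all probe sets moved by 0.53, EGFR 1565483_at was at 0.15 and FLT1 232809_s_at at -0.015. With arrays centered on their medians it moved by -0.17, FLT1 232809_s_at was at -0.71, and 7 members did not overlap, EPHB3 and EGFR 201984_s_at being the ones lost. The cause of these turns was not tested.

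The replicate numbers pair no arrays by the labels, and the deviations of same-numbered arrays correlated at 0.04. With a replicate block 1 probe set and 0 members were called, and no member's call changed. At an unadjusted p under 0.05 limma had 363 higher and 490 lower probe sets, and the methods' t-test 886 and 960 with 0 after adjustment. With the mean of their probe sets, EGFR and NRP1 kept the direction of their brightest probe set, at -1.44 and -3.66. For FLT1 that mean was 1.22. It joins 222033_s_at (2.00) with 232809_s_at (0.44), of which it is unsure whether it measures FLT1. The arrays number 2 a group, with a residual SD (median over probe sets, log2) of 0.98 for all arrays and 0.37 without CD26+ replicate 2, where 0 probe sets were called as well.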
